A study of Mus musculus with 18 samples.

Results

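The genes of MHC class II antigen presentation were followed in B16F10 tumors after 1 and after 2 intratumoral (IT) doses of a STING agonist. The members were taken by name from the gene table: the class II chain genes H2-Aa, H2-Ab1 and H2-Eb1, the invariant chain gene Cd74, the peptide-exchange genes H2-DMa, H2-DMb1 and H2-DMb2, the H2-O chain gene H2-Oa, and Ciita, the class II transactivator. They are 9 of the 50600 genes in the table, and all 9 were listed and passed the filter on low counts. B16F10 is a pigmented melanoma line of C57BL/6 origin, grown here under the skin of the right flank of C57BL/6 mice, which the study's methods describe as female and 5 to 6 weeks old at purchase. Whole tumors were taken 24 h after the last dose, and their RNA was sequenced in 9 groups of 2 tumors (n = 2 biological replicates per group in the study's words). The 5 groups of 1 dose received exoCDN2 (0.1 µg), free CDN2 at 20 µg or at 100 µg, the unloaded vesicles or PBS. The 4 groups of 2 doses, given 3 days apart, received exoCDN2 (0.1 µg), CDN2 (20 µg), CDN2 of an amount the labels do not give, or PBS. The treatment description in the labels covers neither the 100 µg group nor the group of unstated amount, so their dosing and timing are known only from the sample labels and are assumed here to match the rest. CDN2, labelled CL656, is a cyclic dinucleotide that activates STING, a sensor of cytosolic cyclic dinucleotides upstream of type I interferon. exoCDN2 is CDN2 loaded into extracellular vesicles (EVs) made by human HEK293 cells that overexpress PTGFRN, and unloaded EVs are the same vesicles without CDN2. No group received 2 doses of unloaded EVs and no group received free CDN2 at 0.1 µg, so exoCDN2 and CDN2 are set side by side at different amounts. Since 0.333 is the smallest two-sided p that exact permutation of 2 and 2 tumors allows, tests came from a model fitted over all genes. The p-values measure the spread between these tumors as the model estimates it over all groups of a fit and across genes. They do not measure the spread within the compared groups alone. The 8 melanocyte-lineage genes that mark B16F10 cells, such as Pmel and Tyrp1, summed to 339700 to 1135000 normalized counts over the 18 tumors.

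MHC class II molecules present peptides from the endosomes of dendritic cells, macrophages and B cells to CD4+ T cells. Each is an α and a β chain that assemble with the invariant chain, encoded by Cd74, which blocks the groove and directs the complex to endosomes. There the invariant chain is cut down to a short peptide called CLIP, and H2-DM, a dimer of an H2-DMa and an H2-DMb chain, exchanges CLIP for antigen peptides, while H2-O, made from H2-Oa and H2-Ob, restrains H2-DM. Ciita binds no DNA itself: it is recruited to class II promoters by factors on the S, X and Y boxes and sets how much they are transcribed, and interferon gamma induces it, in part through Irf1. C57BL/6 mice lack a functional Ea gene, so the β chain encoded by H2-Eb1 has no α partner of its own isotype at their cell surface.

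Class II promoters are known to share the X and Y boxes, so the stretch around them is shown for the 5 members in which the letters below were found. RefSeq promoter windows (GRCm38.p6, from 250 bases before to 50 bases after each start site) were at hand for 6 of the 9 members, namely H2-Aa, H2-Eb1, H2-DMa, H2-DMb1, H2-DMb2 and H2-Oa. The letters were chosen after the windows had been read. Searched on both strands, the Y box letters TGATTGG lay in the windows of 5 of these 6 genes, all on the gene's own strand, and in 7.82% of the 32851 promoter windows of 300 bases. An AAC, letters within the X box that were taken here to mark it, started 29 bases before the Y box letters in 4 of the 5. In H2-Eb1 it started 28 bases before them. The AAC was looked for from 25 to 40 bases before the Y box letters, and the one nearest to 29 was kept. Of all windows 1.57% hold an AAC in that range. A spacing of 28 or 29 bases, read from these same members, is in 0.253%. A longer run, AAC followed after any single base by GATGATG, was in H2-Eb1, H2-DMb1 and H2-DMb2 and in 0.0609% of all windows. Neither of the 2 H2-DMa windows held TGATTGG, which says only that these letters are not in those windows. Capitals below mark the matched letters, with the X box letters first and the Y box letters second.
H2-Aa, chr17:34287855-34287922, minus strand: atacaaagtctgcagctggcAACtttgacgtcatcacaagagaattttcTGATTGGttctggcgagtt
H2-Eb1, chr17:34305758-34305824, plus strand: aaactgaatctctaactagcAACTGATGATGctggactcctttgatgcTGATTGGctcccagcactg
H2-DMb1, chr17:34153079-34153146, plus strand: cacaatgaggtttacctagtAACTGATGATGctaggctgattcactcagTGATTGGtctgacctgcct
H2-DMb2, chr17:34145108-34145175, plus strand: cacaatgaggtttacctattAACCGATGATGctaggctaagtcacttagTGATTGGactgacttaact
H2-Oa, chr17:34092285-34092352, plus strand: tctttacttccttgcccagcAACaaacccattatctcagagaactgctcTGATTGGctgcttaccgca
The H2-DMb1 and H2-DMb2 stretches are alike over most of their length, as the genes are. H2-Oa holds only the AAC and the Y box letters, as H2-Aa does, and not the longer X run. H2-DMb2 and H2-Oa were close to the detection limit in these tumors.

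Of the 9 members, 7 lie in the MHC region of chromosome 17 and 2 lie elsewhere. In the GRCm38 annotation (GENCODE M21) H2-Oa spans chr17:34092340-34095234, H2-DMa chr17:34119541-34139101, H2-DMb2 chr17:34143307-34151555, H2-DMb1 chr17:34153072-34160230, H2-Ab1 chr17:34257689-34269419 and H2-Eb1 chr17:34305867-34316674, all on the plus strand. H2-Aa is on the minus strand at chr17:34282744-34287823. Cd74 is at chr18:60803848-60812652 and Ciita at chr16:10480059-10528418, both on the plus strand.

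Some members share sequence with other genes, which bears on how far their counts are their own. The H2-DMb1 and H2-DMb2 transcripts share 369 windows of 50 bases, which is 22.7% of those of H2-DMb1 and 21.2% of those of H2-DMb2, and 72 windows of 150 bases. Their counts were the only ones among the members split by more than 0.0001 of a read: they were not whole numbers in 17 of 18 tumors. H2-DMb2 held 0.42% to 4.94% of the sum of both genes, so its own values are uncertain. Adding both into 1 gene left the number of members past the threshold unchanged in every comparison. With so small a part from H2-DMb2 the sum could hardly differ from H2-DMb1, so this does not test the sharing of reads. On the opposite strand, 10.4% of the exon bases of H2-DMa overlap Brd2, 22.8% of those of H2-Oa overlap BC051537, and 3.45% of those of Ciita overlap Dexi. Whether the counting used strand is not given in the sources used here, so reads from these overlaps cannot be assigned. H2-Aa, H2-Ab1, H2-Eb1 and Cd74 shared no window of 150 bases with another gene's transcripts.

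Normalized counts are the deposited counts divided by DESeq2's size factors over the 18 tumors, whose total counts ran from 21608895 to 65983630. Per kilobase of exon, Cd74 had the highest mean of the 9 members in each of the 9 groups, from 997.7 normalized counts per kb after 2 doses of PBS to 8134 after 2 doses of exoCDN2. In the tumors given 2 doses of exoCDN2 the order of mean levels per kb was Cd74, H2-Eb1 (2900), H2-DMb1 (2384), H2-Aa (2092), H2-Ab1 (1850), H2-DMa (647.7), Ciita (84.98), H2-DMb2 (27.06) and H2-Oa (3.485). In both of these tumors H2-DMb1 was above H2-Aa and H2-Aa above H2-Ab1, the latter narrowly in replicate 2 (805.9 and 773.9 per kb). H2-Eb1 and H2-DMb1 changed places between the 2 tumors. This order was not tested. H2-Oa had between 3 and 17 counts in every tumor and H2-DMb2 between 5 and 92, so fold changes are not given for these members. Ciita had 13 counts in CDN2 (20 µg) replicate 1 of 2 doses, 18 in CDN2 (100 µg) replicate 1 and 32 to 1579 in the other 16 tumors, so counting error adds to its values in those 2 groups.

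The values fell into a pattern over the groups that the plot of counts by tumor shows. Cd74 had 6864 and 8883 normalized counts after 1 dose of PBS and 1725 and 1626 after 2 doses. It had 2927 and 3857 after 1 dose of exoCDN2 and 21460 and 5856 after 2 doses. With CDN2 (20 µg) it had 6792 and 14690 after 1 dose and 4005 and 1789 after 2 doses. Cd74 was thus lower in both tumors after 2 doses than in both tumors after 1 dose with PBS and with CDN2, and higher in both with exoCDN2. Unloaded EVs gave 1850 and 6413, and CDN2 (100 µg) gave 1730 and 2102, close to the PBS tumors of 2 doses. The highest Cd74 count of the 18 tumors was in exoCDN2 replicate 1 after 2 doses and was 3.66 times that of its replicate 2.

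**Figure D1:**
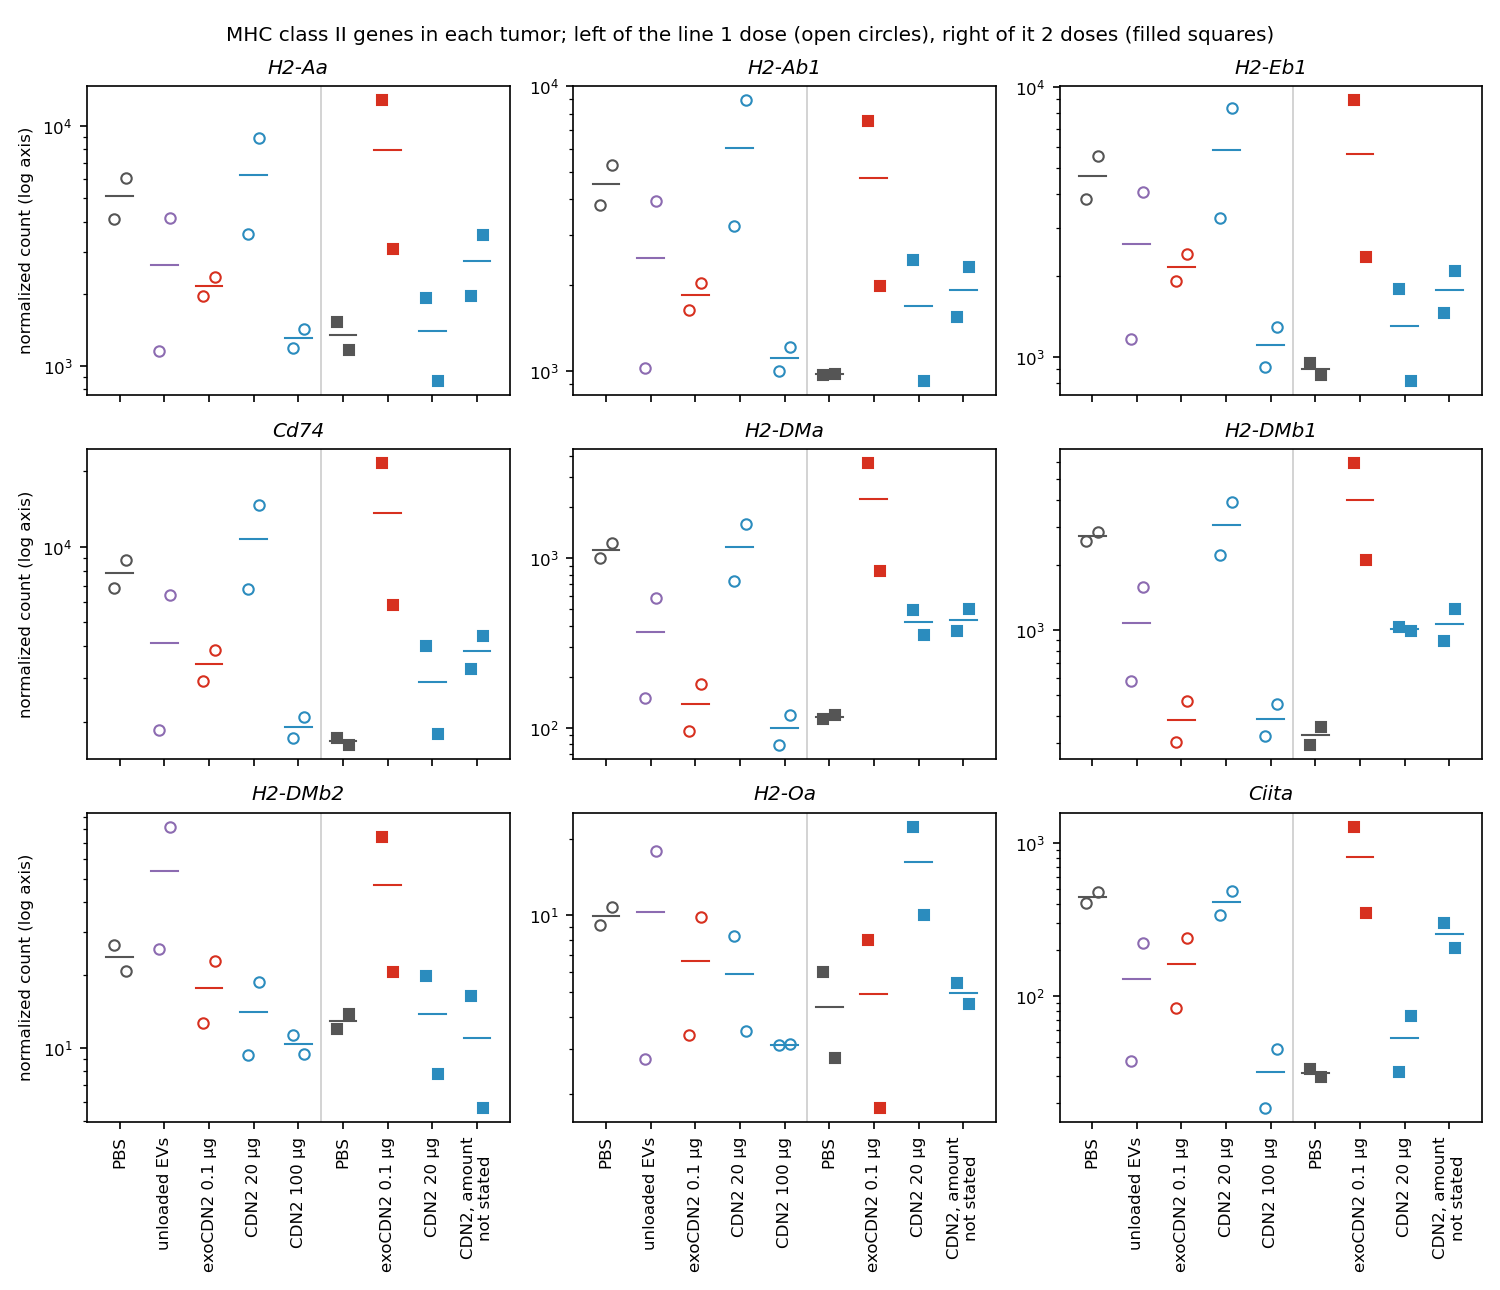
Normalized counts (log axis) of the 9 members in each of the 18 tumors, with a line at the mean of each group of 2; open circles are tumors after 1 dose and filled squares tumors after 2 doses. In the panels of H2-Aa, H2-Ab1, H2-Eb1, Cd74, H2-DMa, H2-DMb1 and Ciita the tumors given 2 doses of exoCDN2 (red squares) lie above those given 2 doses of PBS (gray squares), while H2-DMb2 and H2-Oa stay at or below 81.72 normalized counts.

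The 3 class II chain genes followed Cd74 closely. H2-Aa had 1967 and 2359 normalized counts after 1 dose of exoCDN2 and 12830 and 3061 after 2 doses. H2-Ab1 had 1639 and 2037 after 1 dose and 7515 and 1987 after 2 doses, so the lower of the tumors given 2 doses lay within the range of 1 dose. H2-Eb1 had 1912 and 2409 after 1 dose and 8934 and 2342 after 2 doses, again with overlap. As a description over the 18 tumors, which share the size factors, log2 values of these 3 genes and Cd74 had Pearson correlations of 0.966 to 0.985 with each other. The correlation of H2-DMa with H2-DMb1 was 0.989, that of Cd74 with Ciita 0.89, and no correlation of H2-DMb2 with another member was above 0.583 or of H2-Oa above 0.37. In a whole tumor, fewer cells that express class II and less class II RNA per cell cannot be told apart.

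The second dose of exoCDN2 was compared with the first to see whether class II transcripts differed with repeated dosing. H2-DMa and H2-DMb1, which encode chains of H2-DM, rose. H2-DMa, 95.62 and 180.2 normalized counts after 1 dose, had 3624 and 842.3 after 2 doses. H2-DMb1 had 302.1 and 465.3 after 1 dose and 5909 and 2105 after 2 doses. Neither gene's groups overlapped, whereas those of H2-DMb2 did, at 12.69 and 22.77 against 74.02 and 20.53. By the quasi-likelihood test of edgeR, with p-values adjusted over 16927 genes (Benjamini-Hochberg), H2-DMa was 16.8-fold higher (log2 fold change 4.07, SE 0.76, adjusted p = 0.0064) and H2-DMb1 10.8-fold higher (3.44, SE 0.54, adjusted p = 0.0037). They were the 2 of 9 members past the threshold of adjusted p under 0.05 and a ratio over 2, which 7.44% of all genes tested passed, 5.1% in the upward direction. The number was 4 by DESeq2 and 7 without the filter on low counts. Shares of all genes are not given for these settings, nor for the other settings and left-out tumors below. Such numbers therefore cannot be read as a result about the members. Ciita, the regulator, had 82.93 and 240.6 after 1 dose and 1270 and 350.2 after 2 doses, a log2 fold change of 2.38 (SE 0.80) that did not pass (edgeR, adjusted p = 0.073). Nor did, by edgeR, Cd74 (log2 fold change 2.06, SE 0.65, adjusted p = 0.060), H2-Aa (1.93, SE 0.70, 0.094), H2-Eb1 (1.44, SE 0.67, 0.19) and H2-Ab1 (1.42, SE 0.71, 0.22). In 5 of 9 members both tumors of 2 doses were above both tumors of 1 dose, as in 33.3% of all genes. The median log2 fold change of the 9 members was 1.93, against 0.03 over all genes. The number past the threshold was 0 without exoCDN2 replicate 1 of 1 dose, 2 without its replicate 2, 1 (H2-DMb1) without replicate 1 of 2 doses, and 5 without its replicate 2. Without replicate 1 of 2 doses, the tumor with the highest class II counts, the members' median log2 fold change was 0.54 and that of Ciita 1.16.

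With CDN2 (20 µg) the direction was the opposite. Ciita had 338.8 and 482.1 normalized counts after 1 dose and 32.1 and 73.88 after 2 doses, a 7.44-fold lower level (log2 fold change -2.90, SE 0.86, adjusted p = 0.022 by edgeR). H2-Aa had 3543 and 8956 after 1 dose and 1921 and 865.3 after 2 doses, and H2-Eb1 3261 and 8373 against 1780 and 813.8. Both were 4.62-fold lower (log2 fold change -2.21 each, SE 0.71 and 0.69, adjusted p = 0.031 and 0.028 by edgeR). Cd74 fell by 1.93 on the log2 scale (SE 0.65, adjusted p = 0.037 by edgeR). H2-DMb1, with 2213 and 3912 against 1035 and 983.9, fell by 1.63 (SE 0.51, adjusted p = 0.027 by edgeR). In each of these 5 genes both tumors of 2 doses were below both tumors of 1 dose. By edgeR H2-Ab1 (log2 fold change -1.90, SE 0.72, adjusted p = 0.058) and H2-DMa (-1.5, SE 0.69, adjusted p = 0.11) did not pass. The 5 of 9 members past the threshold, all lower, stand beside 20.8% of all genes tested that passed and 6.36% that passed downward, and the members' median was -1.90 against 0.00. Fitted on these 4 tumors alone, 1 member passed. In 7 of 9 members the tumors of 2 doses were both below those of 1 dose, as in 30.2% of all genes. The number past the threshold was 4 without replicate 1 of 1 dose and 0 without its replicate 2, and it was 3 without replicate 1 of 2 doses and 1 without its replicate 2.

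PBS tumors differed between the collections as well, which bears on both comparisons above. H2-DMb1 had 2588 and 2841 normalized counts after 1 dose of PBS and 293.7 and 354.5 after 2 doses, 8.41-fold lower (log2 fold change -3.07, SE 0.54, adjusted p = 0.013 by edgeR). It was the 1 member of 9 past the threshold, which 1.1% of all genes passed, 1.05% in the downward direction. The number was 5 by DESeq2, 7 without the filter on low counts and 7 when these 4 tumors were fitted alone. The shares of all genes under these settings are again not given. Ciita had 402.7 and 479.1 after 1 dose and 33.5 and 29.39 after 2 doses (log2 fold change -3.81, SE 0.88, edgeR adjusted p = 0.070), and H2-DMa 1007 and 1222 against 112.5 and 118.5 (-3.28, SE 0.74, edgeR adjusted p = 0.062). The log2 fold changes of H2-Aa, H2-Ab1, Cd74 and H2-Eb1 were -1.93, -2.23, -2.24 and -2.38 with SE of 0.70, 0.73, 0.66 and 0.70 (edgeR adjusted p = 0.17 to 0.31). In all 9 members both tumors of 2 doses were below both tumors of 1 dose, an arrangement that 22.4% of all genes showed. H2-DMb1 passed without PBS replicate 1 of 1 dose (adjusted p = 0.048, edgeR) but not without its replicate 2 (0.072) or without replicate 1 (0.076) or 2 (0.16) of 2 doses. Markers of other cells were lower in the same PBS tumors of 2 doses, and their part in these values was not tested. From 1 to 2 doses the summed counts of 9 T cell genes went from 418.3 and 517.1 to 84.17 and 41.33 (1 fell by edgeR, 8 at an unadjusted p under 0.05), those of 10 macrophage genes from 14160 and 17890 to 8482 and 7450, and those of 5 leukocyte genes from 3838 and 4749 to 2308 and 1918. The labels give no other difference between the collections of 1 and 2 doses than the dose, so the day of collection and the dose number cannot be told apart within one treatment.

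**Figure D2:**
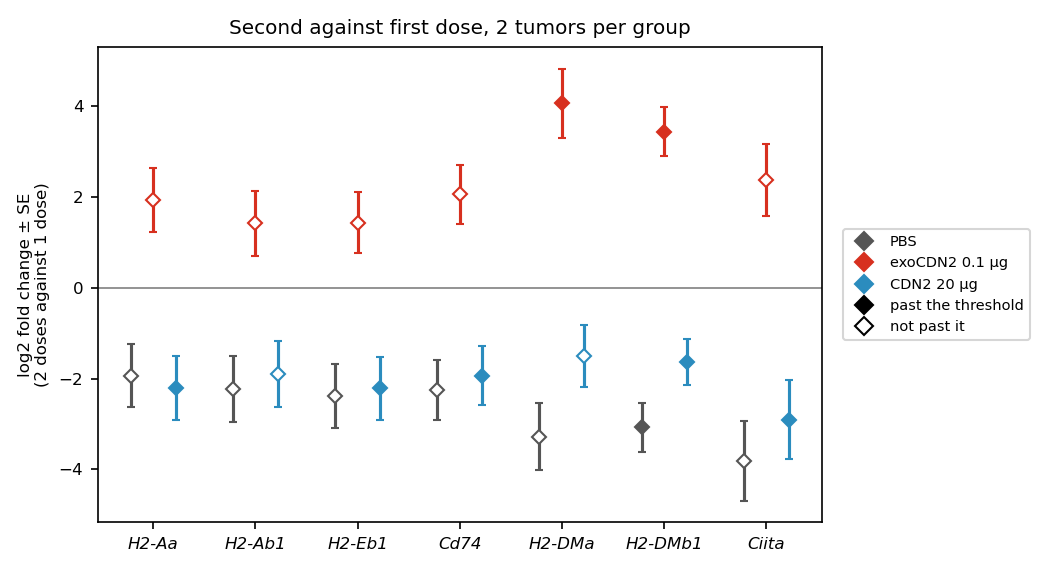
Log2 fold changes (with SE) of 7 members in tumors after 2 doses against tumors after 1 dose, for PBS, exoCDN2 (0.1 µg) and CDN2 (20 µg), 2 tumors per group; filled symbols passed the threshold. All 7 are above 0 with exoCDN2, from 1.42 to 4.07, and all 7 are below 0 with PBS and with CDN2.

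The change between doses was then compared between treatments, as an interaction term in the same model. Relative to the change in PBS tumors, the change with exoCDN2 was higher in 7 of 9 members, where 6.82% of all genes passed and 5.12% passed upward. The log2 differences of the changes were 7.35 for H2-DMa (SE 1.05, adjusted p = 0.0020), 6.51 for H2-DMb1 (SE 0.76, 0.00072), 6.19 for Ciita (SE 1.19, 0.0086), 4.30 for Cd74 (SE 0.92, 0.016), 3.86 for H2-Aa (SE 0.99, 0.035), 3.82 for H2-Eb1 (SE 0.97, 0.032) and 3.65 for H2-Ab1 (SE 1.01, 0.048), by edgeR. H2-DMa and H2-DMb1, whose products form H2-DM, had the largest differences of the 7. The change with CDN2 (20 µg) relative to PBS passed in 0 of 9 members by edgeR, with 0 at an unadjusted p under 0.05 and 0 by DESeq2, while 16.8% of all genes passed. Relative to CDN2 (20 µg), the change with exoCDN2 was higher in 6 of 9 members, where 8.31% of all genes passed and 2.97% passed upward. The log2 differences were those of H2-DMa (5.57, SE 1.01), Ciita (5.28, SE 1.17), H2-DMb1 (5.07, SE 0.74), H2-Aa (4.14, SE 1.00), Cd74 (3.99, SE 0.92) and H2-Eb1 (3.64, SE 0.96), with edgeR adjusted p of 0.010 to 0.038, and H2-Ab1 (3.32, SE 1.01, adjusted p = 0.056) did not pass.

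These differences rest on few tumors. Fitted on the 8 tumors compared alone, 0 members passed for exoCDN2 relative to CDN2 by edgeR, and 7 for exoCDN2 relative to PBS. For exoCDN2 relative to PBS, the number past the threshold was 2 without exoCDN2 replicate 1 of 1 dose (H2-DMa and H2-DMb1), 4 without PBS replicate 1 of 1 dose, 7 without exoCDN2 replicate 2 of 2 doses, and 3 without each of the other 5 tumors. H2-DMa and H2-DMb1 passed in all 8 of these fits. For exoCDN2 relative to CDN2, the number was 0 without exoCDN2 replicate 1 of 1 dose, 1 without CDN2 replicate 1 of 1 dose or exoCDN2 replicate 1 of 2 doses, 3 without replicate 2 of 1 dose of either treatment, 4 without CDN2 replicate 1 of 2 doses, and 6 without replicate 2 of 2 doses of either treatment.

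After 1 dose, the members were lower than PBS in some treatments and near it in others. With exoCDN2, H2-DMa was 8.32-fold lower than with PBS (log2 fold change -3.06, SE 0.73, adjusted p = 0.041) and H2-DMb1 7.26-fold lower (-2.86, SE 0.53, adjusted p = 0.010) by edgeR. These were 2 of 9 members, where 2.62% of all genes passed and 0.425% passed downward, and 7 of 9 members had both exoCDN2 tumors below both PBS tumors, as 32.8% of all genes did. The number was 7 without the filter on low counts, 7 when the 4 tumors were fitted alone and 0 against the PBS tumors of both collections. Shares of all genes under these settings are not given, so the numbers say nothing about the members as such. With CDN2 (100 µg), H2-DMa was 11.3-fold lower (-3.50, SE 0.75, adjusted p = 0.027), H2-DMb1 7.06-fold lower (-2.82, SE 0.53, 0.014) and Ciita, with 18.56 and 44.88 normalized counts, 14-fold lower (-3.81, SE 0.89, 0.041) by edgeR, 3 of 9 members where 2.44% of all genes passed and 0.62% downward. In all 9 members both CDN2 (100 µg) tumors were below both PBS tumors, as in 32.4% of all genes, and the number past the threshold was likewise 7, 7 and 0 under those settings. In both comparisons no member passed once any of the 4 tumors was left out, with H2-DMb1 at log2 fold changes of -2.59 to -3.20 for exoCDN2 and -2.60 to -3.09 for CDN2 (100 µg).

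CDN2 (20 µg) after 1 dose passed in 0 of 9 members against PBS by edgeR, with 0 at an unadjusted p under 0.05 and 0 by DESeq2, where 3.14% of all genes passed. H2-Ab1 had 3215 and 8928 normalized counts with CDN2 (20 µg) and 3807 and 5272 with PBS, so the tumors of these groups overlapped. Unloaded EVs also passed in 0 of 9 by edgeR, with 3 at an unadjusted p under 0.05 and 0 by DESeq2, and 0% of the 16927 genes passed. In 4 of 9 members both EV tumors were below both PBS tumors, as in 22.1% of all genes. The EV tumors differed from each other 3.87-fold in H2-Ab1 (1020 and 3952) and 5.91-fold in Ciita (37.42 and 221.1). exoCDN2 against unloaded EVs passed in 0 of 9 by edgeR, with 2 at an unadjusted p under 0.05 and 1 by DESeq2, where 2.95% of all genes passed. Between the CDN2 forms after 1 dose, at 0.1 µg in vesicles and 20 µg free, H2-DMb1 was 8.13-fold lower with exoCDN2 (log2 fold change -3.02, SE 0.53, adjusted p = 0.038 by edgeR), the 1 member of 9 past the threshold where 0.608% of all genes passed and 0.408% passed downward. In 7 of 9 members both exoCDN2 tumors were below both CDN2 tumors, as in 28% of all genes. The number was 7 without the filter on low counts, 3 when the 4 tumors were fitted alone and 2 by DESeq2, again without the shares of all genes under these settings. H2-DMb1 did not pass once any of the 4 tumors was left out (edgeR adjusted p = 0.082 to 0.45).

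After 2 doses, 7 of 9 members were higher with exoCDN2 than with PBS. Ciita was 26-fold higher (log2 fold change 4.70, SE 0.91, adjusted p = 0.0040), H2-DMa 19.6-fold (4.29, SE 0.76, 0.0025), H2-DMb1 12.5-fold (3.65, SE 0.55, 0.00087) and Cd74 8.27-fold (3.05, SE 0.68, 0.0088) by edgeR. H2-Eb1 was 6.34-fold higher, H2-Aa 6-fold and H2-Ab1 4.96-fold (edgeR adjusted p = 0.021, 0.027 and 0.047). In the table as a whole 11.3% of genes passed and 8.87% passed upward, and 8 of 9 members had both exoCDN2 tumors above both PBS tumors, as 29.2% of all genes did. The number past the threshold was 3 without exoCDN2 replicate 1, 8 without its replicate 2, 4 without PBS replicate 1 and 2 without PBS replicate 2. With the 4 PBS tumors of both collections pooled as the reference, 0 members passed by edgeR.

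CDN2 (20 µg) after 2 doses differed from PBS in H2-DMb1 only among the 9 members by edgeR. H2-DMb1 had 1035 and 983.9 normalized counts with CDN2 and 293.7 and 354.5 with PBS, 3.04-fold higher (log2 fold change 1.61, SE 0.52, edgeR adjusted p = 0.022), where 30.6% of all genes passed and 20% passed upward. In 4 of 9 members both CDN2 tumors were above both PBS tumors, as in 35.1% of all genes. H2-DMb1 passed without CDN2 replicate 2 (adjusted p = 0.049, edgeR) but not without CDN2 replicate 1 (0.059), PBS replicate 1 (0.12) or PBS replicate 2 (0.071), and against the pooled PBS tumors its log2 fold change was -0.63 (adjusted p = 0.54). The CDN2 tumors had H2-Aa counts of 1921 and 865.3, which enclosed those of PBS at 1521 and 1166.

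Set directly against each other after 2 doses, exoCDN2 (0.1 µg) and CDN2 (20 µg) differed in 6 of 9 members, all higher with exoCDN2. Ciita was 15-fold higher (log2 fold change 3.90, SE 0.88, adjusted p = 0.0071), H2-Aa 6-fold (2.58, SE 0.72, 0.018), H2-DMa 5.54-fold (2.47, SE 0.70, 0.019), Cd74 4.94-fold (2.31, SE 0.66, 0.019), H2-Eb1 4.57-fold (2.19, SE 0.69, 0.029) and H2-DMb1 4.12-fold (2.04, SE 0.51, 0.011) by edgeR. In this comparison 19.4% of all genes passed and 7.34% passed upward, and in 7 of 9 members both exoCDN2 tumors were above both CDN2 tumors, as in 32.4% of all genes. The number was 1 (Ciita) without exoCDN2 replicate 1, 7 without its replicate 2, and 2 without either CDN2 tumor. Fitted on these 4 tumors alone, 0 members passed. The tumors given CDN2 of an amount not stated had 299.2 and 206.7 normalized counts of Ciita and 3241 and 4409 of Cd74. Against PBS 0 of 9 members passed by edgeR, with 3 at an unadjusted p under 0.05 and 2 by DESeq2, where 0.959% of all genes passed, and in 7 of 9 members both tumors were above both PBS tumors, as in 15.5% of all genes.

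Genes upstream of Ciita were read in the same tumors. Ifng, which encodes interferon gamma, had 192.1 and 348.5 normalized counts after 1 dose of exoCDN2 and 210.8 and 132.6 after 2 doses (log2 fold change -0.60, SE 0.80, edgeR adjusted p = 0.68). With CDN2 (20 µg) it had 69.42 and 500.9 after 1 dose and 44.45 and 78.36 after 2 doses (log2 fold change -2.19, SE 0.87, edgeR adjusted p = 0.068). Irf1, a transcription factor that acts on Ciita's promoter IV, fell with both, by 1.77 for exoCDN2 (SE 0.30, adjusted p = 0.0043) and by 1.57 for CDN2 (SE 0.29, adjusted p = 0.0025, both by edgeR). In PBS tumors Irf1 fell by 2.84 (SE 0.31, adjusted p = 0.00055, edgeR) from 1 to 2 doses. Of the 9 genes of the list from interferon gamma to Ciita, 1 fell between doses of exoCDN2 and 1 between doses of CDN2, in both cases Irf1. Between these doses 7.44% and 20.8% of all genes passed. After 2 doses against PBS, 5 of these 9 were higher with exoCDN2 (median 1.23) and 4 with CDN2 (median 0.97). Of all genes, 8.87% and 20% passed upward in these comparisons, with medians of 0.01 and 0.00. Of the 10 genes for factors that bind class II promoters or work with Ciita (such as Rfx5, Nfya and Creb1), 0 passed between doses of exoCDN2 or of CDN2 by edgeR, with 4 and 6 at an unadjusted p under 0.05 and 0 by DESeq2 in both, and medians of -0.24 and -0.36.

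Genes of class I, which presents peptides to CD8+ T cells, were set beside class II. The 12 genes of the class I list (H2-K1, H2-D1, B2m, peptide transporters, immunoproteasome subunits and Nlrc5, the class I counterpart of Ciita) included 11 that were higher than PBS after 2 doses with exoCDN2 and 11 with CDN2 (20 µg), with medians of 4.15 and 3.65. Of all genes, 8.87% passed upward with exoCDN2 and 20% with CDN2. Between exoCDN2 and CDN2 after 2 doses 1 of 12 differed, Nlrc5, higher with exoCDN2 (log2 fold change 1.51, SE 0.36, adjusted p = 0.0090 by edgeR), with a median of 0.00. Of all genes, 19.4% passed in that comparison and 7.34% passed upward, so 1 of 12 is near the upward share. From 1 to 2 doses, 7 of 12 rose with exoCDN2 and 0 fell, and 2 rose and 1 fell with CDN2, while 10 of 12 fell in PBS tumors. The shares of all genes past the threshold were 7.44% with exoCDN2, 20.8% with CDN2 and 1.1% with PBS. H2-K1, a class I heavy chain gene, had 145100 and 110100 normalized counts after 2 doses of CDN2 (20 µg) and 116300 and 71260 after 2 doses of exoCDN2, so these groups overlapped. The summed counts of H2-Aa, H2-Ab1 and H2-Eb1 were 2.3% and 1.31% of the summed counts of H2-K1 and H2-D1 after 2 doses of CDN2 (20 µg). That share was 12.7% and 5.01% after 2 doses of exoCDN2 and 29.4% and 23.6% after 2 doses of PBS. It lay between 9.43% and 22.5% in all 10 tumors of 1 dose, so the tumors given 2 doses of CDN2 (20 µg) were the lowest of the 18 and the PBS tumors of 2 doses the highest. These shares were not tested.

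**Figure D3:**
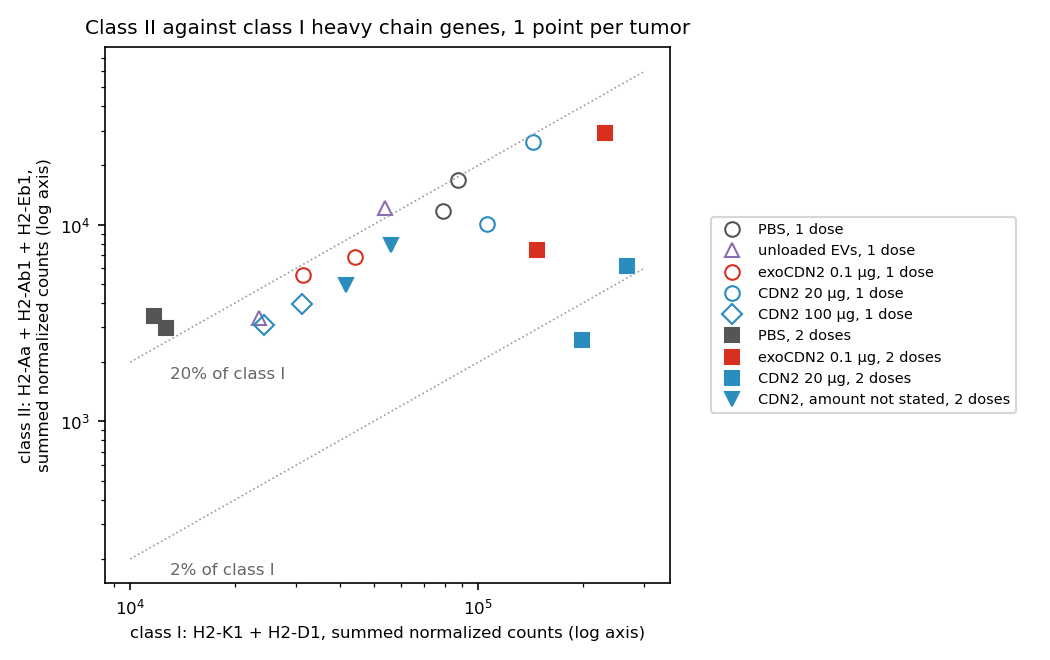
Summed normalized counts of H2-Aa, H2-Ab1 and H2-Eb1 (y, log axis) against those of H2-K1 and H2-D1 (x, log axis), 1 point per tumor, with dotted lines at 20% and 2%. The tumors given 2 doses of CDN2 (20 µg) are far to the right and low, at 2.3% and 1.31%, while the exoCDN2 tumors of 2 doses lie above them at 12.7% and 5.01%.

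The ratios of the H2-DM genes and of Ciita to Cd74 varied between tumors. The H2-DM genes summed to 14% and 17.3% of the Cd74 count after 1 dose of exoCDN2, the lowest of the 18 tumors, and to 44.8% and 50.7% after 2 doses. They made 52.8% and 46% in the PBS tumors of 1 dose and 24.3% and 29.9% in those of 2 doses. With CDN2 (20 µg) they made 43.6% and 37.6% after 1 dose and 38.6% and 75.2% after 2 doses. Ciita had 28.3 and 62.4 counts per 1000 Cd74 counts after 1 dose of exoCDN2 and 59.2 and 59.8 after 2 doses. With CDN2 (20 µg) it had 49.9 and 32.8 after 1 dose and 8.01 and 41.3 after 2 doses, so for both treatments the ratios after 1 and 2 doses overlapped. In the tumors given CDN2 (100 µg) the value was 10.7 and 21.4. These are ratios of counts and were not tested.

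**Figure D4:**
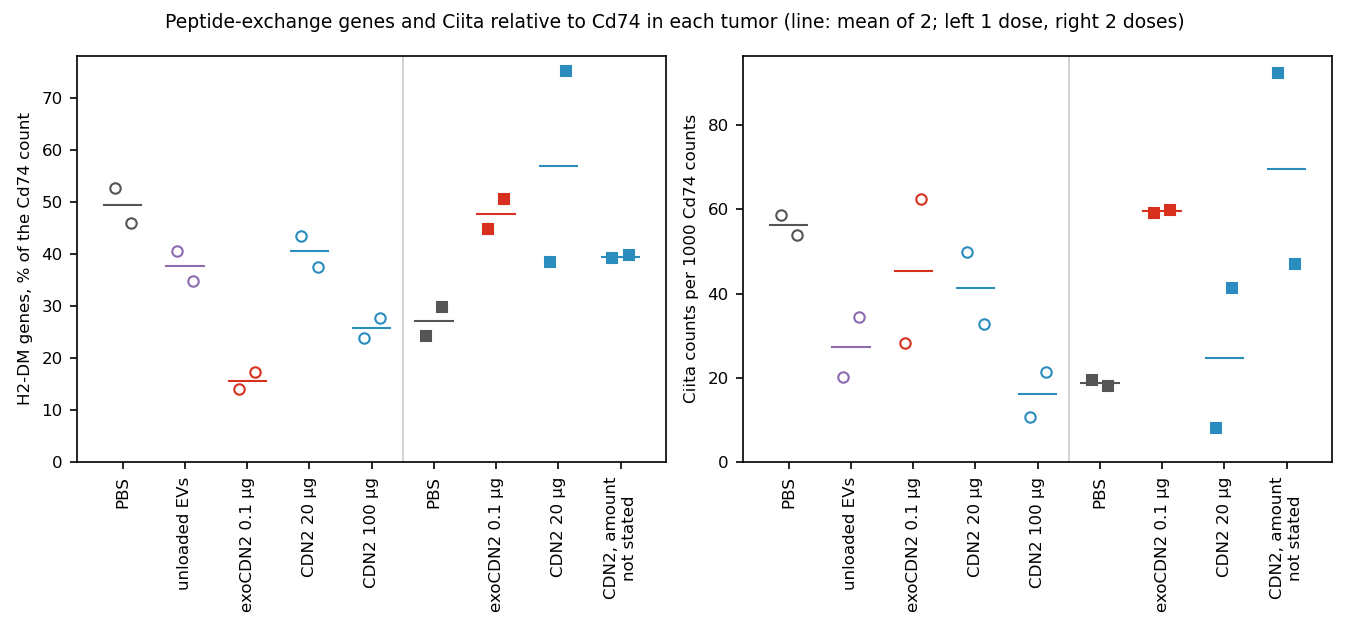
Left, summed counts of H2-DMa, H2-DMb1 and H2-DMb2 as a percentage of the Cd74 count; right, Ciita counts per 1000 Cd74 counts, in each tumor with a line at the group mean. The tumors given 1 dose of exoCDN2 are lowest on the left, at 14% and 17.3%.

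Other steps of the pathway were counted in the same comparisons, beside the 7.44% of all genes that passed between doses of exoCDN2 and the 20.8% that passed between doses of CDN2. Of 12 genes for endosomal proteases and their helpers, 3 rose from 1 to 2 doses of exoCDN2 and 4 with CDN2 (20 µg), and 0 fell in either by edgeR. Their log2 fold changes were positive in 12 of 12 with exoCDN2 and 10 of 12 with CDN2. Ctss, cathepsin S, which makes the last cuts in the invariant chain, rose by a log2 fold change of 2.04 with exoCDN2 (SE 0.45, adjusted p = 0.014) and 1.36 with CDN2 (SE 0.44, adjusted p = 0.031), and Lgmn, an asparagine-specific endopeptidase, by 1.21 and 1.11 (SE 0.22 each, adjusted p = 0.0060 and 0.0033, all by edgeR). Thus Ctss and Lgmn were higher after 2 doses of CDN2 than after 1, while Cd74 was lower. Cd74 was lower after 2 doses in PBS tumors as well (log2 fold change -2.24). Its change with CDN2 relative to PBS was 0.31 (SE 0.89, adjusted p = 0.83, edgeR). Of 10 genes of class II turnover and trafficking, March1, a ubiquitin ligase that removes class II from the surface, rose by 1.82 with exoCDN2 (adjusted p = 0.028) and 2.22 with CDN2 (adjusted p = 0.0053, edgeR). Cd83, which counteracts March1, fell by 1.80 with exoCDN2 (adjusted p = 0.0041) and by 1.25 with CDN2 (adjusted p = 0.0080, edgeR). Of the 8 co-receptor and costimulation genes, 0 passed between doses of exoCDN2 by edgeR (2 at an unadjusted p under 0.05, 1 by DESeq2) and 1 rose with CDN2, Cd80, a ligand of CD28, by 1.67 (SE 0.49, adjusted p = 0.020 by edgeR). Against PBS after 2 doses, 6 of these 8 were higher with exoCDN2 and 6 with CDN2, where 8.87% and 20% of all genes passed upward. The remaining class II genes were near 0: H2-Ob had 0 to 36.67 normalized counts, H2-Ea-ps, the Ea pseudogene, was at 0 in 17 of 18 tumors, and H2-Eb2 had 70.81 in exoCDN2 replicate 1 of 2 doses and at most 15.72 in the other 17 tumors.

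Markers of cells that express class II, and of tissue around a tumor, differed between the same tumors, and their part in the values above was not tested. The counts below stand beside 7.44% of all genes past the threshold between doses of exoCDN2 and 20.8% between doses of CDN2 (20 µg). Of 5 leukocyte genes, 4 rose between doses of exoCDN2 and 3 with CDN2 (20 µg), and their summed counts were 18050 and 11600 after 2 doses of exoCDN2 and 28080 and 11860 after 2 doses of CDN2, against 1918 to 7003 in the other 14 tumors. Cd74 per count of Ptprc, the common leukocyte antigen, was 10.8 and 9.84 after 1 dose of PBS, 1.6 and 2.84 after 1 dose of exoCDN2 and 10.2 and 9.85 after 1 dose of CDN2 (20 µg). After 2 doses it was 3.49 and 7.5 with PBS, 4.66 and 1.84 with exoCDN2 and 1.97 and 0.97 with CDN2. Relative to Ptprc the exoCDN2 tumors thus overlapped the PBS tumors, although Cd74 itself was 8.27-fold higher. Per summed count of C1qa, C1qb and C1qc, of the macrophage list, Cd74 was 0.38 and 0.356 after 2 doses of PBS. It was 1.86 and 0.717 with exoCDN2 and 0.3 and 0.154 with CDN2, so by this ratio exoCDN2 and PBS did not overlap. These ratios were not tested. Of 6 monocyte genes, 4 rose with exoCDN2 (median 2.42) and 5 with CDN2 (median 3.38), and Ly6c2 rose by 5.17 and 5.54 (adjusted p = 0.0021 and 0.00067, edgeR). Of 10 macrophage genes, 2 rose and 1 fell with exoCDN2 and 3 rose with CDN2. Of 10 dendritic cell genes, 1 fell with each treatment: Ccr7, the lymph node homing receptor, by 3.54 with exoCDN2 (adjusted p = 0.0016) and Itgax, which encodes CD11c, by 2.01 with CDN2 (adjusted p = 0.028, edgeR). The summed dendritic cell counts lay between 1385 and 3842 in all 18 tumors. All 6 neutrophil genes rose with CDN2, and with exoCDN2 0 passed by edgeR (0 at an unadjusted p under 0.05, 0 by DESeq2). All 9 T cell genes rose with exoCDN2, and with CDN2 0 passed by edgeR (0 at an unadjusted p under 0.05, 0 by DESeq2). Summed T cell counts with CDN2 were 283.9 and 539.6 after 1 dose and 479 and 462.3 after 2 doses. In PBS tumors they were 418.3 and 517.1 after 1 dose and 84.17 and 41.33 after 2 doses. Relative to the change in PBS tumors, 9 rose with exoCDN2 and 6 with CDN2 by DESeq2. The share of all genes that passed by DESeq2 is not given, so these 2 counts have no matching background. By edgeR 6.82% and 16.8% of all genes passed in either direction. Of 10 B cell genes, 4 to 7 were at 3 counts or fewer in every tumor, and the list's sum was highest in CDN2 replicate 1 of 2 doses (740.8), against 101.5 to 284.3 elsewhere. The 8 melanoma genes included 4 that fell with CDN2, with medians of -1.08 for CDN2 and -0.35 for exoCDN2. Of 6 skeletal muscle genes 5 rose with CDN2, with sums of 159500 and 79270 after 2 doses against 185.4 to 22240 in the other 16 tumors. The sum of 6 keratinocyte genes was 3157 in exoCDN2 replicate 1 of 2 doses, the tumor with the highest class II counts, and 2.933 in its replicate 2, and it was 4848 and 2633 in the PBS tumors of 1 dose and 22.33 and 5.51 in those of 2 doses.

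The genes most like the members in their values were found over the 16 tumors of stated amount, as Pearson correlations of log2 values that share size factors and libraries. Those closest to the mean of H2-Aa, H2-Ab1 and Cd74 were BC064078 (r = 0.9), Gbp2b (0.879), Pltp (0.861), Kcnt2 (0.857), Camk1d (0.851), Tvp23a (0.846), Tcp11x2 (0.843) and Tmco4 (0.831). Gbp2b encodes an interferon-induced guanylate-binding protein and Pltp a phospholipid transfer protein. For Ciita the closest were Tvp23a (0.945), Rapgef5 (0.87), Cd6 (0.863), Aspa (0.863) and Ppfibp2 (0.86). Tvp23a, like Ciita, is on chromosome 16, and Cd6, a T cell surface receptor, is also in the list of T cell genes.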

How the data were processed

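Whole-tumor RNA was sequenced in 18 tumors of 9 groups. Per the study's methods and the labels, the authors aligned filtered reads to GRCm38 (mm10) with OSA and made RSEM expected counts per gene on Ensembl release 88 gene models, which they deposited without normalization as 1 table of 50600 genes. Expected counts were rounded to whole numbers, and 0 columns of per-sample values were left unused. How the counting treated strand is not given in the sources used here. Groups were taken from the labels.

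Genes were filtered with filterByExpr (minimum count 10, minimum total 15), leaving 16927, scaled by TMM and tested with edgeR 4.0.16 (R 4.3.3, limma 3.58.1), quasi-likelihood, 1 mean per group, over the 16 tumors of stated amount with 8 residual degrees of freedom. The group of unstated amount was tested in a fit of all 18 tumors (17110 genes). A gene passed at a Benjamini-Hochberg adjusted p under 0.05 and a ratio over 2, limits the authors used with DESeq2. Each SE is the absolute log2 fold change divided by the square root of the F statistic of the edgeR test. The scripts were tested on simulated data. Printed normalized counts use DESeq2 1.42.0 size factors, and log2 values a pseudocount of 1. Totals ran from 21608895 to 65983630 counts per tumor. Counting error is largest for H2-Oa, H2-DMb2 and, in the tumors where it is low, Ciita.

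All 9 members were read in every comparison. From each other list up to 3 genes per direction with the smallest p among those past the threshold between doses could be named, besides Ifng, Irf1, H2-Ob, H2-Ea-ps and H2-Eb2 and the 8 and 5 genes most like the members. Members and lists were chosen with earlier results of these data known. Alternatives were RLE scaling, no filter, a replicate block, DESeq2, other sets of tumors in the fit, pooled PBS tumors, H2-DMb1 and H2-DMb2 summed, no limit on the ratio, another pseudocount and leaving out each tumor. The result of 1 gene that this rule names is not reported here.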

Additional observations from a re-analysis of the deposited data

Results flagged for a closer look

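The change from 1 to 2 doses differed between treatments, by a test of the difference itself in the edgeR model (quasi-likelihood, Benjamini-Hochberg adjusted). Between exoCDN2 and PBS the log2 changes differed by 3.86 in H2-Aa (adjusted p = 0.035, edgeR), 3.65 in H2-Ab1 (0.048), 3.82 in H2-Eb1 (0.032), 7.35 in H2-DMa (0.002), 6.51 in H2-DMb1 (0.00072), 4.3 in Cd74 (0.016) and 6.19 in Ciita (0.0086). In all 7 the change was positive with exoCDN2 and negative with PBS. Between exoCDN2 and CDN2 (20 µg) they differed by 4.14 in H2-Aa (adjusted p = 0.03, edgeR), 3.64 in H2-Eb1 (0.038), 5.57 in H2-DMa (0.015), 5.07 in H2-DMb1 (0.01), 3.99 in Cd74 (0.028) and 5.28 in Ciita (0.025). Groups of 2 tumors are too small for a test of single tumors that stand apart.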

How the results depend on the processing

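Numbers of the 9 members past the threshold are given here. The share of all genes that passed under each alternative setting is not given, here or above. A number that differs between settings therefore cannot be read as a result about the members. Without the filter on low counts the number was 7 between doses of exoCDN2, 7 between doses of PBS, 2 for CDN2 relative to PBS, 7 for exoCDN2 against PBS after 1 dose, 7 for CDN2 (100 µg), 3 for unloaded EVs, 2 for CDN2 (20 µg) against PBS after 2 doses, 7 for exoCDN2 against CDN2 after 1 dose, 2 for exoCDN2 against unloaded EVs and 5 for the unstated amount. The cause was not tested. With RLE scaling it was 2 for CDN2 (20 µg) against PBS after 2 doses. DESeq2 gave 4 between doses of exoCDN2, 5 between doses of PBS, 2 for CDN2 (20 µg) against PBS after 2 doses, 2 for exoCDN2 against CDN2 after 1 dose, 1 for exoCDN2 against unloaded EVs and 2 for the unstated amount. With all 18 tumors in the fit it was 3 between doses of PBS and 2 for CDN2 (20 µg) against PBS after 2 doses. Fitted on the compared tumors alone it was 1 between doses of CDN2, 7 between doses of PBS, 0 for exoCDN2 relative to CDN2, 7 for exoCDN2 and 7 for CDN2 (100 µg) against PBS after 1 dose, 2 for CDN2 (20 µg) against PBS after 2 doses, 3 and 0 for exoCDN2 against CDN2 after 1 and 2 doses, and 3 for the unstated amount. With PBS tumors of both collections pooled it was 0 for exoCDN2 and 0 for CDN2 (100 µg) against PBS after 1 dose and 0 for exoCDN2 and 0 for CDN2 (20 µg) after 2 doses, and H2-DMb1 turned to -0.63 (log2) for CDN2 (20 µg).

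With the replicate number as a block it was 1 for exoCDN2 against PBS and 0 for exoCDN2 against CDN2 after 1 dose, and elsewhere within 1.5 times the number without it. The tumors share only a number: over 28 pairs of groups the correlation of replicate differences averaged 0.0064 (-0.177 to 0.308), 4 above 0.1 and 4 below -0.1. Crossing the numbers in the CDN2 (20 µg) group of 2 doses, chosen after seeing the data, moved neither number it bears on beyond 1.5 times.

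Leaving out 1 tumor at a time gave 0 to 5 between doses of exoCDN2, 0 to 4 of CDN2 and 0 to 1 of PBS, 2 to 7 for exoCDN2 relative to PBS, 0 to 6 relative to CDN2, 0 for exoCDN2 and 0 for CDN2 (100 µg) against PBS and 0 for exoCDN2 against CDN2 after 1 dose, 2 to 8 for exoCDN2 and 0 to 1 for CDN2 against PBS and 1 to 7 for exoCDN2 against CDN2 after 2 doses. Of 829 other recomputed values, 636 stayed the same, 157 no longer passed the threshold, 33 passed it newly, 2 moved and 1 turned. For fold changes, the same meant an unchanged direction and side of the threshold. The 636 include group means of log2 values, which have no threshold, 80 under TMM scaling and 80 with a pseudocount of 0.5. Those stayed within the SD of their group, and the 2 that moved were group means too. Depth limits H2-DMb2, H2-Oa and, at 13 and 18 counts in 2 tumors, Ciita.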
